A study of Mus musculus with 6 samples.

Results

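Mitophagy, the selective removal of mitochondria by autophagy, was followed in the transcripts of 9 mouse genes that encode its kinase, receptors, adaptors and regulators: Pink1, Usp30, Bnip3, Bnip3l, Fundc1, Bcl2l13, Phb2, Sqstm1 and Optn. They were chosen by gene name, all 9 were found among the 33971 genes of the table, and all 9 passed the filter on low counts. The libraries came from articular cartilage of wild-type mice, with 3 libraries at 2 months of age and 3 at 18 months, and no other genotype or treatment was used here. Counts of polyadenylated RNA totalled between 48171507 and 59085179 per library. The study's methods call its samples independent, but the labels do not tie each library to an animal, so the p-values measure only the spread between these libraries. Levels are given as FPKM, fragments per kilobase of transcript scaled to the size of the library, which allows genes to be compared per length. Changes are log2 fold changes of 18-month against 2-month cartilage from the quasi-likelihood test of edgeR, adjusted by Benjamini-Hochberg over the 20397 genes tested, and a gene is said to rise or fall when its adjusted p was below 0.05.

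Cells mark a mitochondrion for removal in at least a pair of ways. In the ubiquitin route the kinase PINK1 gathers on the surface of a depolarized mitochondrion and phosphorylates ubiquitin there, adaptors such as p62 and optineurin bind the ubiquitin chains and carry them to ATG8 proteins on the growing autophagosome, and the deubiquitinase USP30 trims the chains. In the receptor route, proteins anchored in the mitochondrial membranes, among them BNIP3, NIX, FUNDC1, BCL2L13 and prohibitin 2, bind ATG8 proteins themselves. Cartilage has no blood vessels, its chondrocytes live at low oxygen, and BNIP3 is a textbook target of the hypoxia-inducible factors (HIF).

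At 18 months 5 of the 9 genes fell, 3 rose and 1 did not pass the test. Bnip3 had the largest change of the 9, a log2 fold change of −4.26, followed by Pink1, Usp30, Fundc1 and Sqstm1 with values between −1.21 and −0.91. Phb2, Bcl2l13 and Optn rose by 0.75 to 0.97, and Bnip3l had a log2 fold change of −0.41. Across all genes tested 23.4% rose and 27.9% fell, so changes with age were common in this comparison. Under the study's further limit of a log2 fold change beyond 1 or −1, 4 of the 9 genes were lower and 0 were higher, against 21.3% and 14.9% of all genes. The median log2 fold change was −0.91 over the 9 genes and −0.02 over all genes. In 5 of the 9 genes every 18-month library was below every 2-month library and in 3 every one was above, which held for 34.6% and 33.9% of all genes. The edgeR test called 4769 of all genes higher and 5688 lower. Another tool, limma on log2(FPKM + 0.1), called 6325 higher and 5639 lower over 21539 genes, with a median of 0.07. Rescaling the FPKM values to one common sum per library (TPM) moved these limma results to 3912 higher and 7602 lower, with a median of −0.33. Relative to that median the 9 genes kept their directions, but on that scale 1 of them was called higher and 6 lower. Without 18-month replicate 2 the edgeR test called 3 higher and 3 lower. Its calls among all 21396 genes tested were also fewer, at 3053 higher and 4346 lower.

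**Figure D1:**
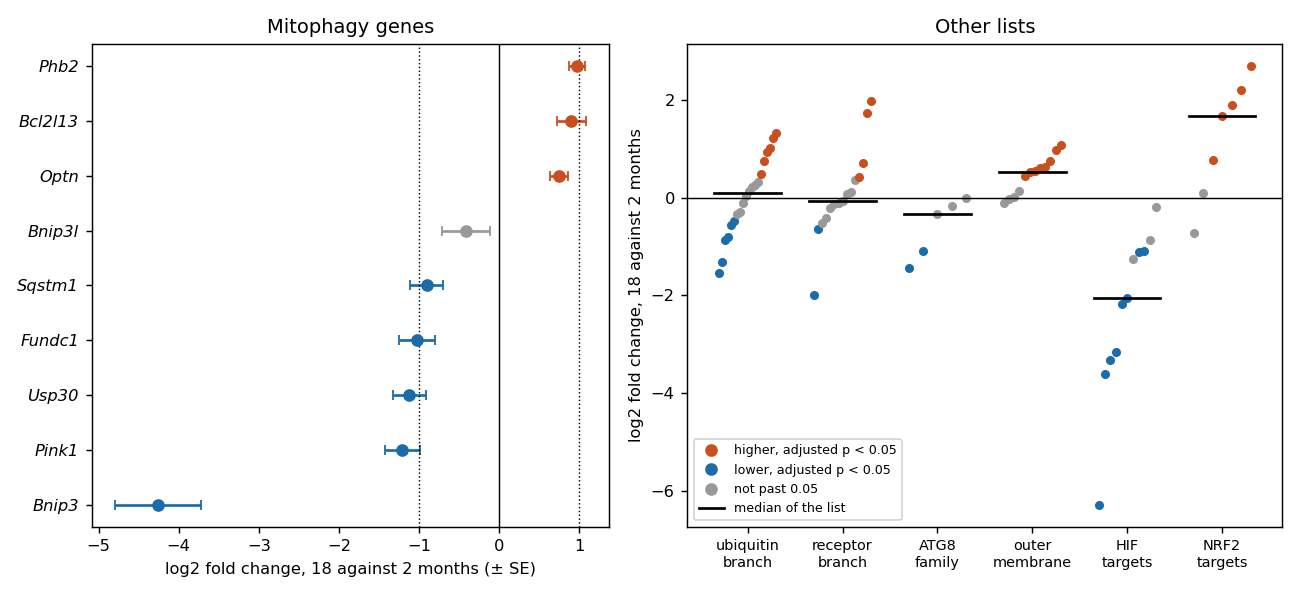
Log2 fold changes of 18-month against 2-month cartilage: left, each mitophagy gene with its standard error and dotted lines at −1 and 1, and right, the genes of 6 other lists with the median of each list as a bar. Bnip3 stands at −4.26, 4 other genes lie between −1.21 and −0.91, and Phb2, Bcl2l13 and Optn lie between 0.75 and 0.97.

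The tissue label was checked against cell type markers. All 14 chondrocyte markers fell, from between 6.72% and 7.93% of all counts at 2 months to between 0.190% and 0.822% at 18 months, and none of them was at 3 counts or fewer in every library of an age. Lists of marrow cell markers held larger shares of counts at 18 months, except that of B lymphocytes, which overlapped. The 12 neutrophil markers held 0.00128% to 0.374% of counts at 2 months and 4.20% to 4.51% at 18 months, with no overlap for any of the 12, though 0 passed edgeR's quasi-likelihood test after adjustment and 2 had an unadjusted p below 0.05. DESeq2 called 10 of these 12 higher and limma on log2(FPKM + 0.1) all 12. The 10 erythroid markers tested held 0.0247% to 0.663% and then 2.71% to 3.58%, with 3 of 10 past the edgeR test, 8 in DESeq2 and 10 in limma, and the 10 macrophage markers held 0.00115% to 0.0389% and then 0.0819% to 0.0846%, with 3 of 10 past it. Of the other lists, 5 of 6 megakaryocyte, 0 of 10 B lymphocyte (0 at an unadjusted p below 0.05, 0 in DESeq2 and 2 in limma), 1 of 7 endothelial and 1 of 3 adipocyte markers tested rose, and 3 of 8 osteoblast and 5 of 8 muscle markers tested fell, with Myh4, Myh1 and Cidec at 0 in all 18-month libraries. The inactive X transcript Xist had 88239 to 102417 counts at 2 months and 11 to 30 at 18 months, although the study's methods describe male mice. This difference ran with age in every library, so it cannot be told apart from age for any of the 9 genes. In bulk tissue, fewer cells of a type and less RNA per cell cannot be told apart, and the part of these shifts in the values of the 9 genes was not tested.

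Pink1 (ENSMUSG00000028756, GRCm38 chromosome 4, 138313409 to 138326307, minus strand) encodes the kinase that starts the ubiquitin route. Its level was 105, 66.4 and 83.8 FPKM in the 2-month libraries and 42.1, 39.2 and 36.4 FPKM in the 18-month libraries. The lowest 2-month library was above the highest 18-month library. The mean fell from 85.1 ± 19.4 to 39.2 ± 2.87 FPKM (SD, n = 3), a log2 fold change of −1.21 ± 0.22 (SE; edgeR adjusted p = 0.00669). Its fall passed the test under each of the 17 alternatives run, with an adjusted p of at most 0.0333.

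Usp30 (ENSMUSG00000029592, chromosome 5, 114065461 to 114124720, plus strand), which encodes the deubiquitinase that opposes PINK1 on the outer membrane, was among the least abundant of the 9 genes. It was measured at 5.34, 3.51 and 4.50 FPKM at 2 months and 2.18, 2.25 and 2.07 FPKM at 18 months, with no overlap between the ages. Usp30 fell by 1.13 ± 0.21 on the log2 scale (SE; edgeR adjusted p = 0.00711), and its level was 2.18-fold lower, beside 2.31-fold for Pink1. Alkbh2, which overlaps Usp30 on the other strand, had 155 to 394 counts at 2 months and 80 to 156 at 18 months beside 802 to 1781 counts of Usp30. The libraries were strand-specific, but the sources used here do not say whether strand was used in counting.

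The adaptors of the ubiquitin route moved in opposite directions. Sqstm1 (ENSMUSG00000015837, chromosome 11, 50199366 to 50210827, minus strand) encodes p62, which links ubiquitin chains to ATG8 proteins and is itself degraded by autophagy. Its level was 92.9, 61.1 and 78.1 FPKM at 2 months and 43.3, 44.2 and 44.1 FPKM at 18 months. The ages did not overlap, and the 18-month libraries lay within 1 FPKM of each other. The fall was 0.91 ± 0.20 on the log2 scale (SE; edgeR adjusted p = 0.0141). It no longer passed without 2-month replicate 3 (adjusted p = 0.0506), 18-month replicate 2 (0.0519) or 18-month replicate 3 (0.0520). Optn (ENSMUSG00000026672, chromosome 2, 5020642 to 5064045 in the deposited table, minus strand), which encodes the adaptor optineurin, was at 7.80, 8.74 and 6.70 FPKM at 2 months and at 13.4, 14.3 and 13.4 FPKM at 18 months. Every 18-month library was above every 2-month library, and Optn rose by 0.75 ± 0.11 on the log2 scale (SE; edgeR adjusted p = 0.00364). On the TPM scale its value was 0.39 and did not pass (limma adjusted p = 0.0527). The level of Sqstm1 remained above that of Optn in all 6 libraries.

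Bnip3 (ENSMUSG00000078566, chromosome 7, 138890836 to 138909519, minus strand) encodes a receptor of the outer membrane that is made in low oxygen. It had 396, 125 and 274 FPKM at 2 months and 19.8, 11.8 and 13.1 FPKM at 18 months. The 2-month libraries themselves differed widely, with replicate 2 the lowest, yet that library was still well above the 18-month libraries. The mean went from 265 ± 136 to 14.9 ± 4.28 FPKM (SD, n = 3), and the fitted level was 19.2-fold lower (log2 fold change −4.26 ± 0.53, SE; edgeR adjusted p = 0.00241). In counts this was a fall from between 16536 and 49291 to between 1677 and 3011, far above the counting floor at both ages. The value stayed between −4.59 and −3.83 and passed the test in all 17 alternatives.

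**Figure D2:**
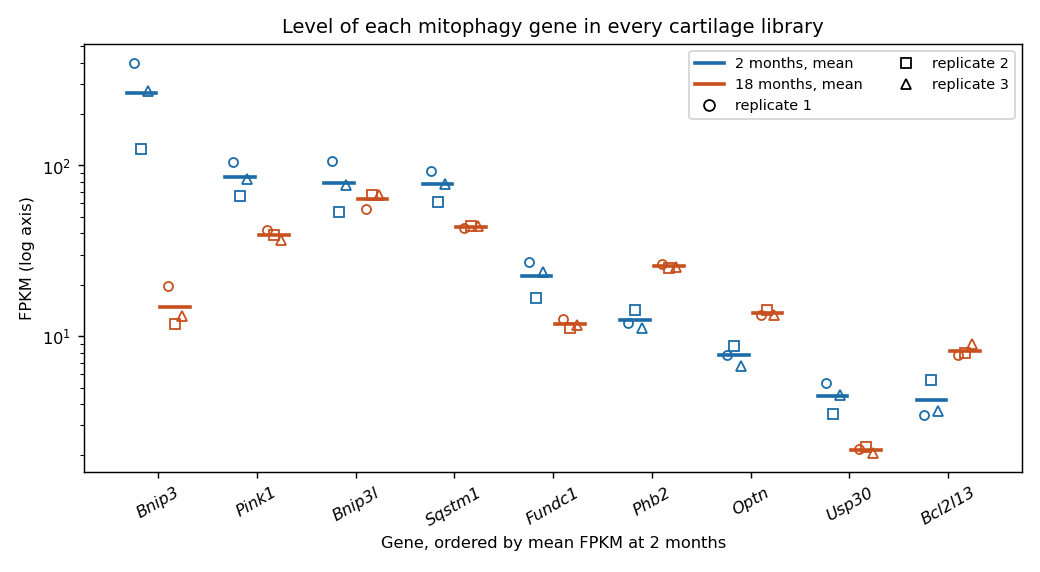
FPKM on a log axis of the 9 mitophagy genes in each of the 6 libraries, with open symbols for replicates 1 to 3 and bars for the mean of each age. Bnip3 is first at 2 months at 265 FPKM on average and stands at 14.9 FPKM at 18 months, while the libraries of the ages overlap for Bnip3l.

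Bnip3l (ENSMUSG00000022051, chromosome 14, 66985239 to 67008877, minus strand) encodes NIX, the close relative of BNIP3 that is best known for clearing mitochondria from maturing red cells. Its level was 106.9, 53.6 and 77.3 FPKM at 2 months and 55.6, 67.4 and 67.6 FPKM at 18 months. The ages overlapped, since 2-month replicate 2 was the lowest of the 6 libraries. The log2 fold change was −0.41 ± 0.30 (SE) and did not pass edgeR's quasi-likelihood test (adjusted p = 0.290). Without 2-month replicate 1 the value was −0.11 (adjusted p = 0.749). Without 2-month replicate 2 it was −0.63 and passed (adjusted p = 0.0320), and on the TPM scale it was −0.70 (limma adjusted p = 0.0420). The row is uncertain, because its processed copy Bnip3l-ps on chromosome 12 had 1098 to 1982 counts at 2 months and 1156 to 1257 at 18 months, and how reads shared by the pair were counted is not given in the sources used here. The erythroid marker share, given above, was higher in every 18-month library and was highest among the 2-month libraries in replicate 2.

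The balance between the related receptors was compared as a share. Bnip3 made up 78.8%, 69.9% and 78.0% of the summed FPKM of Bnip3 and Bnip3l in the 2-month libraries and 26.2%, 14.9% and 16.3% in the 18-month libraries. The mean share went from 75.5% ± 4.88 to 19.1% ± 6.19 (SD, n = 3), a difference of −56.4 percentage points, and p = 0.1 in a two-sided exact permutation test is the smallest that 3 libraries against 3 can give. Leaving out any 1 library gave differences between −60.0 and −54.3 points, and shares of counts in place of FPKM gave −52.3 points.

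The bases just before the start of transcription are shown for Bnip3, the gene that fell most, for Pink1, which starts the other route, and for Optn, an adaptor that rose. Capitals mark each match to the core of the hypoxia response element, ACGTG or GCGTG on either strand, with overlapping matches joined. The sequences are from RefSeq on GRCm38.p6, 250 bases each, printed 5′ to 3′ on the strand of the gene, at chr7:138909507-138909756, chr4:138326297-138326546 and chr2:5064118-5064367, all on the minus strand.
Bnip3: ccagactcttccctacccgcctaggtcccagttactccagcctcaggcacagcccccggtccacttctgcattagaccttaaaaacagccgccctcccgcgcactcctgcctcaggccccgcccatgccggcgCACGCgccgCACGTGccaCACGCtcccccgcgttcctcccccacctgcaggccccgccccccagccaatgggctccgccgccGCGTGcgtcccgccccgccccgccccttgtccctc
Pink1: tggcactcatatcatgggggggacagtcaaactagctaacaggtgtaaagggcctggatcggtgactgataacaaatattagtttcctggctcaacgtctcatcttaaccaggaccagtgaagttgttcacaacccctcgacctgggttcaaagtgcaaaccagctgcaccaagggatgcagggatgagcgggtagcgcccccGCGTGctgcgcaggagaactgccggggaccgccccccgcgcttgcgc
Optn: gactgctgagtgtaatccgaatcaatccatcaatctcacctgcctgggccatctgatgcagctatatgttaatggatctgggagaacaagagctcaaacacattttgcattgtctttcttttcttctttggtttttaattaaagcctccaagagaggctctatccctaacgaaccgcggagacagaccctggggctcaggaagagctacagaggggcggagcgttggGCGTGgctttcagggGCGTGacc
The Bnip3 stretch holds 4 such matches, a number that 1.49% of the 32851 RefSeq promoters of this length reach or exceed. Optn holds 2 (13.5% of promoters have 2 or more) and Pink1 holds 1 (38.6% have at least 1). Of the 9 genes, 8 were matched to the promoter table, all but Bnip3l. Phb2 and Bcl2l13 also hold 1 match, and Fundc1, Sqstm1 and Usp30 hold 0 in this window. Of the 3 genes that rose, all 3 hold a match, and of the 4 genes that fell besides Bnip3, 1 does. Among all promoters 38.6% hold at least 1, and with so few genes these counts are a description only. A match describes letters in the window and not a site in use.

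**Figure D3:**
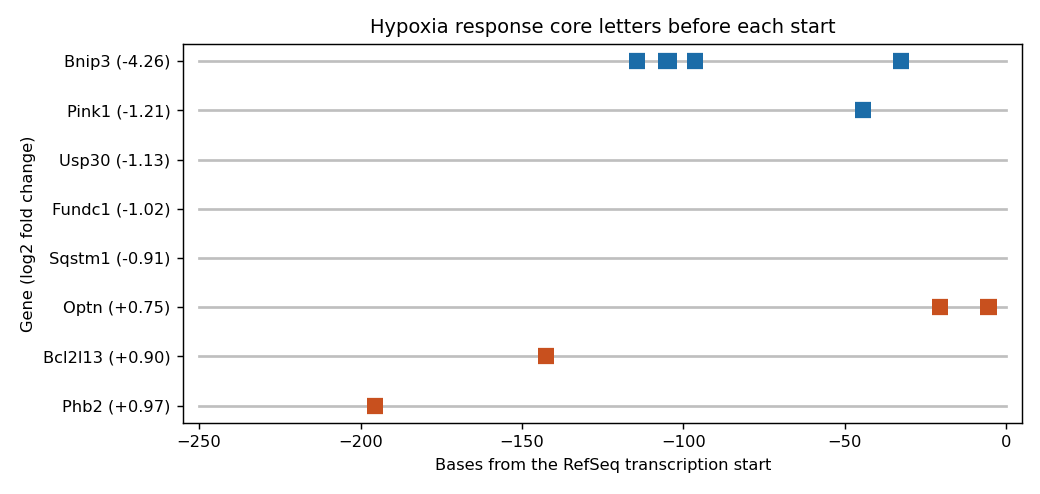
Positions of the matches to ACGTG or GCGTG, as blocks drawn to scale along the 250 bases before the RefSeq start of 8 mitophagy genes, with the log2 fold change of each gene in brackets. Bnip3 has 4 blocks, Optn 2, and Pink1, Phb2 and Bcl2l13 have 1 each.

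Fundc1 (ENSMUSG00000025040, X chromosome, 17556564 to 17572325, minus strand) encodes a receptor of the outer membrane whose binding to ATG8 proteins is set by phosphorylation. It was at 27.1, 16.7 and 23.7 FPKM at 2 months and at 12.6, 11.2 and 11.6 FPKM at 18 months, with no overlap. Fundc1 fell by 1.02 ± 0.22 on the log2 scale (SE; edgeR adjusted p = 0.0125), and narrowly missed the threshold without 18-month replicate 2 (adjusted p = 0.0512). The gene is X-linked, and for it, as for every gene here, the difference in Xist cannot be told apart from age. Its X-linked relative Fundc2 had 2495 to 2871 counts at 2 months and 2809 to 3875 at 18 months, whereas Fundc1 had 2304 to 3510 and then 1663 to 1987.

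Bcl2l13 (ENSMUSG00000009112, chromosome 6, 120836212 to 120892842, plus strand) encodes a BCL2-like receptor of the outer membrane. Its level was 3.43, 5.56 and 3.64 FPKM at 2 months and 7.72, 7.95 and 8.94 FPKM at 18 months. All 18-month libraries were above all 2-month libraries, and Bcl2l13 rose by 0.90 ± 0.18 on the log2 scale (SE; edgeR adjusted p = 0.00953), but not past the threshold on the TPM scale (0.55, limma adjusted p = 0.0879). Bid, which overlaps it on the other strand, had 15, 517 and 64 counts at 2 months and 3301, 2989 and 3527 at 18 months, beside 1716 to 2960 and then 4547 to 5180 counts of Bcl2l13. Without knowing whether strand was used in counting, reads in the stretch shared by Bid and Bcl2l13 cannot be told apart, and the rise of Bcl2l13 is uncertain to that extent.

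Phb2 (ENSMUSG00000004264, chromosome 6, 124712336 to 124716950, plus strand) encodes prohibitin 2, a scaffold of the inner membrane that becomes a receptor once the outer membrane has ruptured. It was measured at 12.0, 14.1 and 11.2 FPKM at 2 months and 26.5, 25.1 and 25.3 FPKM at 18 months. The spread within an age was small beside the gap between ages. Phb2 rose by 0.97 ± 0.10 on the log2 scale (SE; edgeR adjusted p = 0.00148), just inside the study's limit of 1, and passed the test under each of the 17 alternatives, with values from 0.62 to 1.05. Phb, which encodes its partner prohibitin 1 in the same ring complex, rose by 0.49 (edgeR adjusted p = 0.0396).

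The order of the 9 genes by level differed between the ages. At 2 months Bnip3 stood above all others in each library, with Pink1, Bnip3l and Sqstm1 next at 85.1, 79.3 and 77.4 FPKM, and these 3 neighbours overlapped. Fundc1, Phb2 and Optn followed without overlap, and Usp30 and Bcl2l13 were lowest at 4.45 and 4.21 FPKM, with overlap. At 18 months Bnip3l was highest at 63.6 FPKM, above Sqstm1 at 43.9, Pink1 at 39.2 and Phb2 at 25.7, none of these neighbours overlapping. Bnip3 came next at 14.9 FPKM and overlapped Optn at 13.7. Fundc1, Bcl2l13 and Usp30 closed the order at 11.8, 8.20 and 2.17 FPKM. The summed level of the 9 genes was 757, 355 and 563 FPKM at 2 months and 223.1, 223.5 and 222.6 FPKM at 18 months. Without Bnip3 the sum was 293 ± 65.5 at 2 months and 208 ± 4.34 FPKM at 18 months (SD, n = 3), so Bnip3 made up most of the difference.

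As shares of that sum, Bnip3 went from 45.4% ± 9.03 to 6.67% ± 1.92 (SD, n = 3). Bnip3l went from 14.3% ± 0.715 to 28.5% ± 3.08, Phb2 from 2.52% ± 1.29 to 11.5% ± 0.337, and Sqstm1 from 14.5% ± 2.52 to 19.7% ± 0.235. Pink1 held 15.8% ± 2.56 and 17.6% ± 1.27 of the sum, within the spread of the libraries. Shares of a sum are tied to each other, and the larger shares of Bnip3l and Sqstm1 stand beside levels that did not rise.

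**Figure D4:**
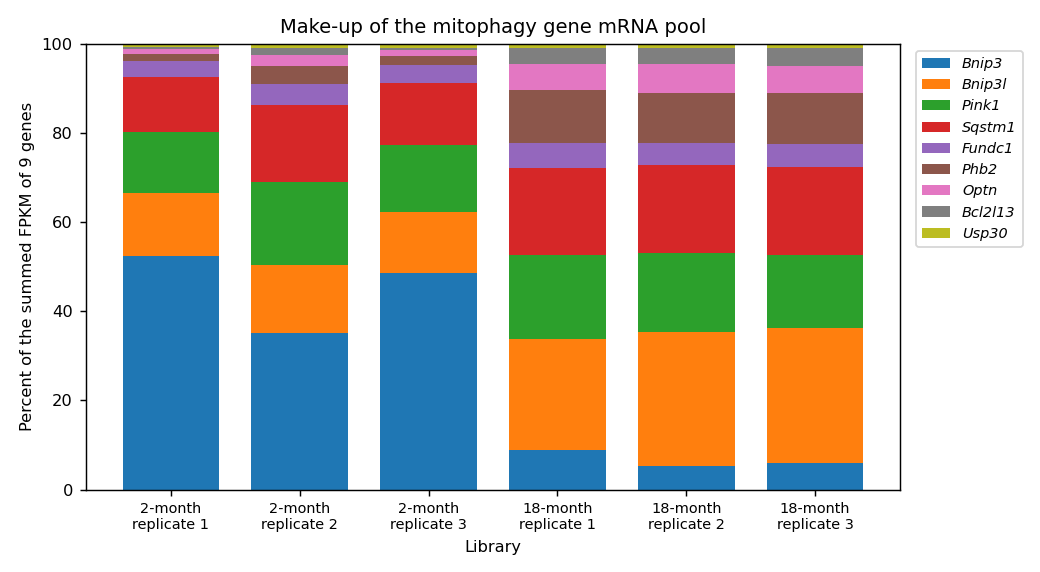
Stacked bars of the percent of the summed FPKM of the 9 mitophagy genes that each gene made up in each of the 6 libraries. Bnip3 takes 35.2% to 52.3% of the bar at 2 months and 5.26% to 8.86% at 18 months, when Bnip3l takes 24.9% to 30.4%.

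The 9 genes were also set against the outer membrane itself. Of 12 genes for its proteins, mainly channels and import machinery, 8 rose and 0 fell, against 23.4% and 27.9% of all genes. The median log2 fold change of the 12 genes was 0.54. Their geometric mean level went from 10.2 ± 0.813 to 14.9 ± 0.209 FPKM (SD, n = 3). The FPKM of all genes in a library also summed to more at 18 months, 360503 to 387502 against 269587 to 293108 at 2 months. Tomm22, a receptor of the import pore, rose by 0.97 (edgeR adjusted p = 0.00127), and the channel gene Vdac2 rose by 1.09. On the TPM scale these values were smaller, at 0.62 and 0.74. Tomm70a, of the same list, rose by 0.61 but was at 0.25 on that scale and did not pass (limma adjusted p = 0.105). Vdac1, the most abundant of the 12 at 50.0 FPKM at 2 months and 52.3 at 18 months, had a log2 fold change of −0.02 whose sign turned under 8 of the alternatives. On the TPM scale Vdac1 was at −0.36 and passed as lower (limma adjusted p = 0.0466). Relative to the geometric mean of the 12 genes, the log2 level at 18 months minus that at 2 months was −1.65 for Pink1, −1.57 for Usp30, −1.46 for Fundc1, −1.35 for Sqstm1 and −4.59 for Bnip3. Bnip3l, whose own levels overlapped between ages, was at −0.82 on this relative scale with no overlap. Phb2 was higher by 0.50 and Optn by 0.28, also with no overlap, and Bcl2l13, at 0.44, overlapped. The two-sided exact permutation test gave p = 0.1 for each of the 8 genes without overlap, the smallest 3 libraries against 3 allow (0.113 after Benjamini-Hochberg adjustment over the 9 genes), and p = 0.2 for Bcl2l13. The sizes depended on the reference. With the 5 ATG8 genes in its place the differences were −0.58 for Pink1, −0.51 for Usp30, −0.39 for Fundc1, −0.29 for Sqstm1 and −3.53 for Bnip3. Optn was then at 1.34, Bcl2l13 at 1.505 and Phb2 at 1.56, and Bnip3l turned to 0.24.

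Libraries of one age were not equally far from the other age. For all 9 genes, 2-month replicate 2 was the 2-month library nearest the 18-month mean of log2 CPM, the count scaled to library size. How often that library was nearest over all genes was not counted, so this is not shown to be particular to the 9 genes. The same library had the highest 2-month shares of erythroid (0.663%), neutrophil (0.374%) and macrophage (0.0389%) markers, while its chondrocyte share of 7.66% lay between those of the other 2-month libraries. Its osteoblast share was 1.73%, against 0.483% and 0.564% in the other 2-month libraries. B lymphocyte, endothelial, megakaryocyte, muscle and adipocyte shares were also highest there among the 2-month libraries. Without it the same test called 3 of the 9 genes higher and 6 lower, with Bnip3 at −4.59 and Pink1 at −1.36, while calls among all 21489 genes tested rose to 6879 higher and 6087 lower. Among the 18-month libraries, replicate 1 had the highest chondrocyte share (0.822%) and the highest Bnip3 and Pink1 levels of its age. At 2 months the order was otherwise, since replicate 1 had the lowest chondrocyte share (6.72%) and the highest Bnip3 (396 FPKM) and Pink1 (105 FPKM) levels. The part of these marker shares in the values of the 9 genes was not tested.

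**Figure D5:**
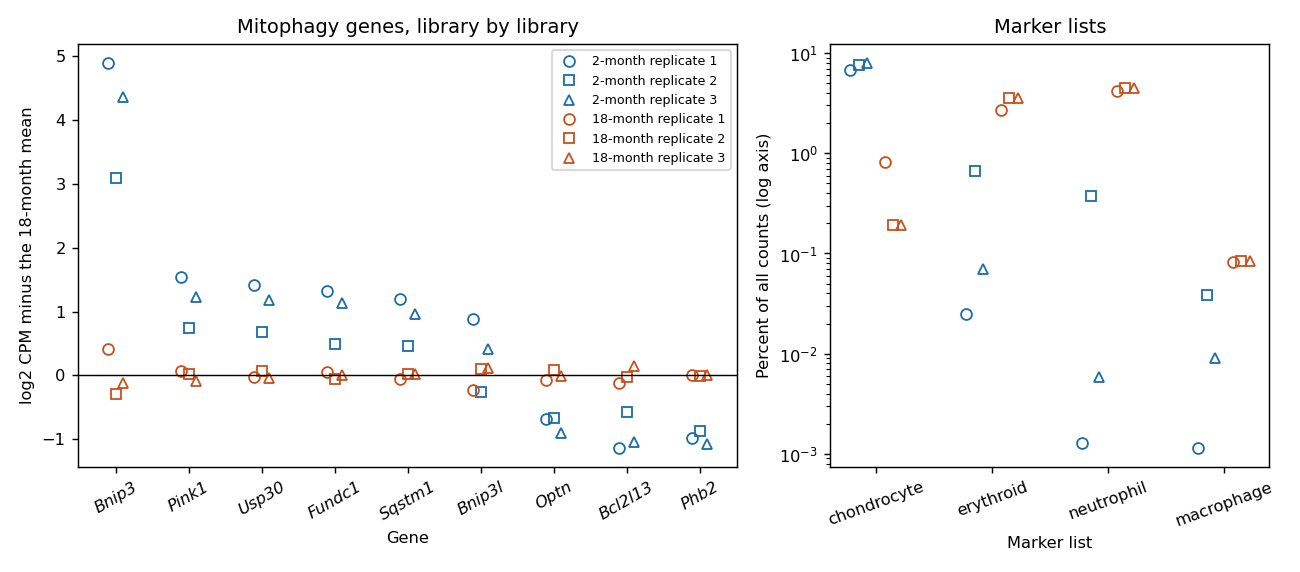
Left, log2 CPM (counts scaled to library size) of each mitophagy gene in each library minus the mean of the 18-month libraries, and right, the percent of all counts held by 4 lists of marker genes on a log axis. The squares of 2-month replicate 2 lie closest to 0 among the 2-month libraries for all 9 genes, which was not counted over all genes. The erythroid share of 2-month replicate 2, 0.663%, is above those of the other 2-month libraries.

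Other genes of the same routes were described from fixed lists. Of 20 further genes of the ubiquitin route 6 rose and 6 fell, beside 23.4% and 27.9% of all genes. Their median log2 fold change was 0.09, and on the TPM scale 3 were higher and 9 lower. The adaptor gene Tax1bp1 rose by 1.03 (edgeR adjusted p = 0.00179), the outer membrane ubiquitin ligase gene Marchf5 by 1.23 (adjusted p = 0.00308) and the deubiquitinase gene Usp15 by 1.33 (adjusted p = 0.00481). Calcoco1 fell by 1.54, the adaptor gene Nbr1 by 0.85 and the deubiquitinase gene Usp35 by 1.31 on the log2 scale, with edgeR adjusted p of 0.00158, 0.00251 and 0.00669. These genes were named for the lowest adjusted p in each direction, so the presence of both directions among them follows from that choice. Vcp, which encodes the segregase that pulls ubiquitinated proteins from membranes and was the most abundant of the list, was at 38.9 and 48.2 FPKM (log2 fold change 0.23, edgeR adjusted p = 0.228).

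Of 15 further genes of the receptor route 4 rose and 2 fell, beside 23.4% and 27.9% of all genes. The median of the list was −0.07, and 1 fell when any library other than 2-month replicate 2 was left out. Tspo, for an outer membrane protein that binds cholesterol, rose from 30.2 to 127 FPKM (log2 fold change 1.99, edgeR adjusted p = 0.000751), Mcl1, for an anti-apoptotic relative of BCL2, from 33.6 to 117 FPKM (1.74, adjusted p = 0.00290), and Chdh, for choline dehydrogenase, by 0.71 (0.34 on the TPM scale, where it did not pass, limma adjusted p = 0.203). Bcl2, which restrains apoptosis and autophagy, fell by 1.99 on the log2 scale (edgeR adjusted p = 0.00763). Fbxl4, whose product holds the amounts of BNIP3 and NIX protein down, fell by 0.63 (edgeR adjusted p = 0.0325), a call lost under 7 of the 17 alternatives. The 5 ATG8 genes encode the proteins that receptors and adaptors bind. Of these 5, 2 fell and 0 rose, beside 27.9% and 23.4% of all genes, and the median of the list was −0.33. Map1lc3a fell by 1.08 and Gabarapl1 by 1.45 on the log2 scale, with edgeR adjusted p of 0.00253 and 0.00721. Gabarap, the most abundant, was at 134 and 127 FPKM (log2 fold change −0.16, edgeR adjusted p = 0.463).

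The tested genes whose levels over the 6 libraries ran closest to each of the 8 that passed were found by the root mean square distance between centred log2 profiles, over 13899 candidates with a mean of at least 1 FPKM. Arhgef28 and Dbp were closest to Bnip3, at distances of 0.109 and 0.137, and Dbp encodes a clock-controlled transcription factor. Pgrmc2 and Saraf were closest to Pink1 (0.0439 and 0.0464), Eid1 and Uxs1 to Usp30 (0.0354 and 0.0492), Cd81 and Alkbh6 to Fundc1 (0.0255 and 0.0379), and Ier3ip1 and Tmed7 to Sqstm1 (0.0228 and 0.0377). Among the genes that rose, Piga and Taf5 were closest to Phb2 (0.0267 and 0.0310), Uap1l1 and Dhrs4 to Bcl2l13 (0.0306 and 0.0310), and Rbm34 and Dcaf12 to Optn (0.0266 and 0.0409). With so many candidates over 6 libraries a close profile is a description only. Bnip3 had no neighbour as close as those of the other genes, its nearest being more than 2 times as distant as theirs. Distances were not scaled to the size of the change, and Bnip3 had the largest change (−4.26), so the larger distance cannot be told apart from that size.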

How the data were processed

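RNA sequencing of polyadenylated RNA from mouse articular cartilage was analysed in 6 libraries, 3 at 2 months and 3 at 18 months. For each gene the table deposited by the authors gives raw counts, which are whole numbers with no normalization, and FPKM values, which the authors scaled for the length of the transcript and the size of the library. The submitters' processing notes name cutadapt 1.9, HISAT2 2.0.4, UMI-tools, StringTie 1.3.4d, DESeq2 and edgeR, but the genome build is not given in the sources used here. Of 33865 genes found in GENCODE M21, 91.2% had identical coordinates, so positions are on GRCm38 (8 of the 9 mitophagy genes were identical and Optn was not). In total 0 columns of values per library were left out.

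The test was edgeR 4.0.16 in R 4.3.3 (TMM, filterByExpr, quasi-likelihood test without a replicate block) on the deposited counts. The Benjamini-Hochberg adjustment covered 20397 genes. Standard errors were obtained by dividing the absolute log2 fold change by √F. Alternatives were other scalings and filters, DESeq2 1.42.0, limma 3.58.1 with trend on log2(FPKM + 0.1), pseudocounts of 1 and 0.01, TPM, a replicate block, the study's fold limit and leaving out each library. The text names the 9 genes, up to 3 genes per direction with the lowest adjusted p and the most abundant gene of each other pathway list, the 2 nearest profiles of each called gene and the marker lists. Phb and Nqo1 were named after their values had been seen. The 9 genes and all lists were chosen with earlier results of these data known. The fits were tested on simulated data. Promoter letters were searched in RefSeq. Exact tests used scipy 1.17.1 and plots matplotlib 3.10.9, in Python 3.11.15.

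Replicate libraries did not match within counting noise, with a median chi-square 6.55 to 67.4 times that of counting alone, the lowest between 18-month replicates 2 and 3, so all were kept as separate samples. Same-numbered libraries of the ages did not deviate together, so the numbers were not taken as pairs.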

Additional observations from a re-analysis of the deposited data

How the results depend on the processing

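All 9 mitophagy genes kept their direction in 153 alternative values, of which 145 kept their side of the threshold, 6 lost the call and 2 gained it. On the TPM scale 1 of the 9 genes was higher, the ubiquitin route had 3 higher and 9 lower, the receptor route 2 higher and 7 lower, and the ATG8 family 5 lower. TPM shifts the median of all genes down, which moves every value with it. Under the study's fold limit 0 of the 9 genes were higher, the ubiquitin route had 3 higher and 2 lower, and the receptor route 2 higher and 1 lower. The receptor route had 1 lower without a filter. Leaving out 1 library each gave between 3 and 6 of the 9 genes lower, with 3 without 18-month replicate 2 and 6 without 2-month replicate 2, and between 1 and 2 receptor route genes lower. Without 18-month replicate 2, 18-month replicate 3 or 2-month replicate 3, genes higher among all tested numbered 3053, 3038 and 3083, against 4769, and genes lower 4346, 4338 and 4198, against 5688.

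With the replicate block 3 of the 9 genes were higher and 5 lower, and the receptor route had 3 higher and 1 lower, against 4 and 2 without it. Correlations of same-numbered libraries were 0.08, 0.08 and −0.07, so the numbers were not treated as pairs, and the block lowered the calls among all genes from 4769 to 3555 higher and from 5688 to 4301 lower.

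Of 595 alternative values for all named genes, the 9 mitophagy genes included, 560 kept their side, 21 lost a call, 4 gained one and 10 changed sign. Vcp was −0.14 on the TPM scale. Gabarap ranged from −0.26 to 0.0034 with 1 library left out. Vdac1 was 0.027 with median-of-ratios size factors, 0.057 with total counts, 0.0048 without a filter, 0.055 in DESeq2, and 0.073, 0.071 and 0.073 in limma with pseudocounts of 0.1, 1 and 0.01, and ranged from −0.13 to 0.12 with 1 library left out. On the TPM scale it was −0.36 and passed (limma adjusted p = 0.0466). Set against the ATG8 genes in place of the outer membrane genes, Bnip3l was higher by 0.24 on the log2 scale. The 9 genes had at least 802 counts in every library.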

Other observations

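Lists outside mitophagy that bear on the same genes' textbook regulators were read as a description. Of 11 tested targets of the hypoxia-inducible factors other than Bnip3, 8 fell and 0 rose at 18 months, beside 27.9% and 23.4% of all genes. The median log2 fold change of these targets was −2.06. Adm, for the vasodilator peptide adrenomedullin, went from 33.2 to 0.449 FPKM (log2 fold change −6.29). Vegfa, for the growth factor of vessels, went from 128 to 15.3 FPKM (−3.16), and the glucose transporter gene Slc2a1 from 64.2 to 6.89 FPKM (−3.32), with edgeR adjusted p of 0.00166 and 0.00270. Ldha, for lactate dehydrogenase and the most abundant of the list, went from 319 to 158 FPKM (−1.11, edgeR adjusted p = 0.0365), a call lost under 6 of the 17 alternatives, namely the replicate block (adjusted p = 0.0521) and leaving out any library other than 2-month replicate 2 (adjusted p up to 0.115, with a value of −0.78 without 2-month replicate 1). The summed share of counts of the 11 genes was 0.557%, 0.273% and 0.416% in the 2-month libraries and 0.176%, 0.129% and 0.129% in the 18-month libraries. As with Bnip3, 2-month replicate 2 was the lowest of its age and 18-month replicate 1 the highest of its age. The chondrocyte markers also fell between the ages, from between 6.72% and 7.93% of counts to between 0.190% and 0.822%. Within the 2-month libraries the lists differed, since replicate 1 had the lowest chondrocyte share (6.72%) and the highest share of the HIF targets (0.557%). The part of the chondrocyte markers in the values of the HIF targets was not tested.

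Of 7 targets of NRF2, the antioxidant transcription factor that p62 frees from its inhibitor KEAP1, 5 rose and 0 fell, with a median of 1.68. Among all genes 23.4% rose and 27.9% fell. Nqo1, for a quinone reductase, was at −0.72 (edgeR adjusted p = 0.0707), and DESeq2 called 1 of the 7 lower. Sqstm1, itself a textbook NRF2 target, fell by 0.91 on the log2 scale. Gclc and Gclm, for the subunits of the enzyme that starts glutathione synthesis, rose by 1.68 and 2.71, and the haem oxygenase gene Hmox1 by 2.21, with edgeR adjusted p of 0.00144, 0.00165 and 0.00275. Hmox1 is also made by macrophages, whose marker share was higher in every 18-month library, and the part of that share in these values was not tested.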
